A study of Saccharomyces cerevisiae with 222 samples.

Results

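The 10 genes described here encode the core machinery that makes and first processes DNA double-strand breaks (DSBs) in meiosis of budding yeast. They were chosen by name and function, with earlier results of these data known, and all 10 are among the 5818 genes of each table. Of these, 5 are expressed mainly in meiosis (SPO11, REC102, REC104, REC114 and MEI4) and 5 are also expressed and used in mitotic cells (SKI8, XRS2, RAD50, MRE11 and SAE2). The study asked how Ume6, a DNA-binding regulator of early meiotic genes, represses these genes in mitotic cells and activates them with the meiotic regulator Ime1. It holds 222 RNA-seq libraries, 3 for each of 74 strains and times in 4 experiments in the SK1 background.

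Meiotic recombination starts when Spo11, a relative of topoisomerases, cuts both DNA strands and stays bound to the ends. Spo11 acts in a core complex with Rec102, Rec104 and Ski8, and a separate group of Rec114, Mei4 and Mer2 assembles on chromosome axes and is needed for cutting. The Mre11-Rad50-Xrs2 complex is required for break formation in this yeast, and with Sae2 it releases Spo11 from the ends and starts resection. Ski8 also serves in cytoplasmic RNA decay, and Mre11, Rad50, Xrs2 and Sae2 repair breaks in mitotic cells, whereas the remaining 5 proteins have no known role outside meiosis. In mitotic cells Ume6 bound at URS1 sites, whose core reads GGCGGC, recruits histone deacetylases to repress early meiotic genes. In starved diploid cells Ime1 is recruited to Ume6 and the same sites then serve activation.

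The groups were as follows. In the mitotic experiment, haploid MATa cells carried UME6-AID-3V5 (a degron that auxin triggers through the plant receptor OsTIR1) and the estradiol-activated regulator LexA-ER-B112. The depletion strain held OsTIR1 under lexO sites and the control lacked it. Both received β-estradiol at −30 min and auxin at 0 min, and were sampled from −30 to 120 min. WT and ume6Δ cells were sampled in log phase. In the meiotic depletion experiment, a/alpha diploids with IME1 and IME4 under the CUP1 promoter and UME6-AID-3V5 carried LexA-ER-GAL4AD, another estradiol-activated regulator, and the depletion strain alone held OsTIR1 under lexO sites. Both received β-estradiol and auxin at 0.5 h in sporulation medium, and copper at 2 h, which induced IME1 and IME4 synchronously. Depletion was incomplete in these cells per the study's methods. In the rescue experiment, a/alpha diploids with IME1 or sfGFP-IME1 carried UME6, UME6-3V5, UME6(T99N)-3V5 or UME6(T99N)-3V5-aGFP. T99N is a substitution that impairs binding of Ume6 to Ime1, and aGFP is a nanobody that binds GFP, so that sfGFP-IME1 with UME6(T99N)-3V5-aGFP is the tethered strain. In the activation domain experiment, all strains were a/alpha diploids that carried UME6(T99N)-3V5-aGFP and lacked IME1 at its own locus. They expressed IME1, sfGFP-IME1, B112 or sfGFP-B112 from the IME1 promoter at HIS3. B112 is a bacterial peptide that activates transcription in yeast. Cells of both sporulation experiments with nanobodies were sampled at 0, 2, 4 and 6 h.

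Levels are TPM (transcript abundance scaled to gene length and library size), and differences between groups are log2 fold changes (log2FC) of estimated counts in edgeR's quasi-likelihood test, with p-values adjusted by the Benjamini-Hochberg method over all genes tested. A gene was called at an adjusted p under 0.05. Libraries summed to 4322697 to 23448759 counts apart from 1 of 44189, replicate 2 of sfGFP-IME1 UME6-3V5 at 4 h. In IME1 UME6-3V5 cells, the counts of replicate 1 at both 0 and 2 h match the deposited TPM only when the libraries are exchanged, so both were left out and that strain has n = 2 at those times. UME6 was at 35.5 TPM in WT and 0.239 in ume6Δ. The cell-type transcripts of the ume6Δ libraries also departed from those of WT, although both strains are listed as MATa. The a-cell genes STE2 and BAR1 summed to 33.6 TPM (31.5 to 35.8) against 692 (660 to 726) in WT, with no row for MFA1 and MFA2. The 3 alpha-cell genes MF(ALPHA)1, MF(ALPHA)2 and STE3 summed to 65.1 TPM (60.1 to 73.3) against 8.47 (6.18 to 9.82). Of these, MF(ALPHA)1 and STE3 were at 48.1 and 5.37 TPM against 0.263 and 0.216. MF(ALPHA)2 makes up the rest of each sum and was thus already present in WT. In the a/alpha diploids of the meiotic depletion experiment, the a-cell sum ranged from 8.43 to 35.4 TPM over libraries and the alpha-cell sum from 10.2 to 114.5. The genotype of the ume6Δ libraries was not tested. The study describes its 3 replicates as biological. Nothing in the labels says that they were separate cultures throughout, so p-values measure the spread between these libraries.

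The URS1 core separates the members only in part. In promoters taken from 250 bases before to 50 after the start of the coding sequence in the RefSeq S288C assembly R64, searched on both strands, GGCGGC occurred in 309 of 6007 promoters (5.14%). It occurred in 3 of the 5 meiosis-specific members, in REC104, REC114 and MEI4, and in 0 of the 5 constitutive members. Windows of SPO11 and REC102 held neither GGCGGC nor the shorter GGCGG, which is part of it and is in 974 promoters (16.2%). The 3 cores lay at similar distances from the start codon, with the first base 91, 92 and 96 bases before it, and in the same orientation. The stretches below, 5′ to 3′ on the strand of the gene, are shown because these are the sites at which a URS1 core is present, and the capitals mark it. The libraries come from SK1, whose sequence was not used here.
REC104, VIII:412786-412851, plus strand: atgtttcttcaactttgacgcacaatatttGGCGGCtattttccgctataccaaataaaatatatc
REC114, XIII:536085-536150, plus strand: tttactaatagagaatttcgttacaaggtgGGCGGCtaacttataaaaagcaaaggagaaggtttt
MEI4, V:239835-239900, minus strand: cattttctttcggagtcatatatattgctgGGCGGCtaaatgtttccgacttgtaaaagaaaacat

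In the 3 stretches the core is followed by ta, and REC114 and MEI4 also share tg before it and taa after it. Among 7 other meiosis-specific genes of the pathway, 5 held GGCGGC (MER1, HOP1, REC8, MEK1 with 2, and PCH2) and REC107 and RED1 did not. Of 10 constitutive genes of the pathway, 0 held GGCGGC and 5 held GGCGG. A missing match says only that these letters are absent from this window.

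In R64 the members lie on chromosomes VIII (SPO11 or YHL022C, 62961 to 64157, minus strand, and REC104 or YHR157W, 412907 to 413455, plus), XII (REC102 or YLR329W, 786442 to 787333, plus, 2 coding exons), XIII (REC114 or YMR133W, 536207 to 537609, plus, 2 coding exons, and MRE11 or YMR224C, 718575 to 720653, minus), V (MEI4 or YER044C-A, 238460 to 239774, minus, 2 coding exons), VII (SKI8 or YGL213C, 90054 to 91247, and SAE2 or YGL175C, 173285 to 174322, both minus), IV (XRS2 or YDR369C, 1215016 to 1217580, minus) and XIV (RAD50 or YNL250W, 175410 to 179348, plus). For 9 of the 10, the coding length in the files equals that in RefSeq. The exception is REC114. Its row is 1995 bases long against 1287 in RefSeq, and the next gene downstream, ERG29 (YMR134W, 714 bases, required for viability), has no row of its own. The sum of both RefSeq lengths is 2001, so the row may hold reads of both genes, which cannot be told apart here. This touches every value of REC114 below.

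In dividing cells the meiosis-specific genes were low but differed widely in level. SPO11 was at 0.741, 1.47 and 1.54 TPM in the 3 WT libraries, which rests on 10, 18 and 12 counts. REC102 was at 3.26, 2.53 and 1.88 TPM, REC104 at 4.93, 7.15 and 3.75, and MEI4 at 2.88, 3.17 and 1.99. In WT, REC102 and MEI4 overlapped, and all libraries of SPO11 lay under both. The row of REC114 stood apart at 58.6, 56.1 and 42.1 TPM, within the range of a constitutive gene. The constitutive genes averaged 66.5 ± 3.34 TPM for SKI8, 15.6 ± 0.385 for MRE11, 13.1 ± 1.03 for SAE2, 11.2 ± 1.68 for RAD50 and 8.94 ± 0.312 for XRS2 (SD, n = 3). MRE11, SAE2 and RAD50 followed each other in that order, with SAE2 and RAD50 overlapping between libraries.

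The tagged control was not at the level of WT before any treatment. SPO11 was at 4.64, 5.38 and 5.03 TPM in the control at −30 min, above all WT libraries, with a log2FC of 2.00 (SE 0.24, edgeR adjusted p = 3.85e-08). REC104 rose by 1.60, REC102 by 1.34 and MEI4 by 0.78 on the same scale, and REC114 did not pass the test (log2FC 0.22). Of the constitutive genes, MRE11 was called, with a log2FC of 0.35. In all, 5 of 10 members were higher, against 21.0% of all genes tested. The control differs from WT in the tag and the LexA regulator, and the part of each was not tested.

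Depletion of Ume6 in mitotic cells raised the meiosis-specific genes within 15 min of auxin. MEI4 was at 25.4, 23.8 and 22.0 TPM in the depletion strain and at 3.55, 2.76 and 3.96 in the control at 15 min. These groups were far apart, and the log2FC of 2.73 (SE 0.22, edgeR adjusted p = 8.82e-12) was the largest among the members at this time. REC104, at 78.0, 102 and 76.4 TPM against 12.7, 17.0 and 13.8, had a log2FC of 2.51 (SE 0.21, edgeR adjusted p = 1.57e-11). REC102, with the libraries at 17.1, 18.8 and 18.7 TPM against 3.49, 4.27 and 7.78, rose by 1.73 (SE 0.23, edgeR adjusted p = 1.18e-06). SPO11 was at 8.96, 10.9 and 8.90 TPM against 3.65, 4.32 and 3.88 and rose by 1.22 (SE 0.19, edgeR adjusted p = 2.07e-05). The libraries of the strains did not overlap for any of these genes, and the share of all genes without overlap was not computed. In such bulk samples, more expressing cells and more RNA per cell cannot be told apart. REC114 rose least, from 45.1 ± 2.95 to 72.4 ± 5.00 TPM, a log2FC of 0.63 (SE 0.12, edgeR adjusted p = 3.05e-04).

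Among the constitutive genes, RAD50, the ATPase of the Mre11 complex, was called at 15 min. It was at 18.0, 15.6 and 17.0 TPM in the depletion strain and at 9.12, 10.7 and 12.2 in the control, without overlap, with a log2FC of 0.61 (SE 0.16, edgeR adjusted p = 0.00749). XRS2 and SAE2 had an unadjusted p under 0.05 and missed the adjusted threshold (log2FC 0.25 and 0.27), and SKI8 and MRE11 were at −0.10 and −0.08. Together 6 of 10 members were higher, against 10.2% of all genes tested. The median log2FC was 1.73 over the meiosis-specific members and 0.25 over the constitutive members, and 0.00 over all genes tested.

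**Figure D1:**
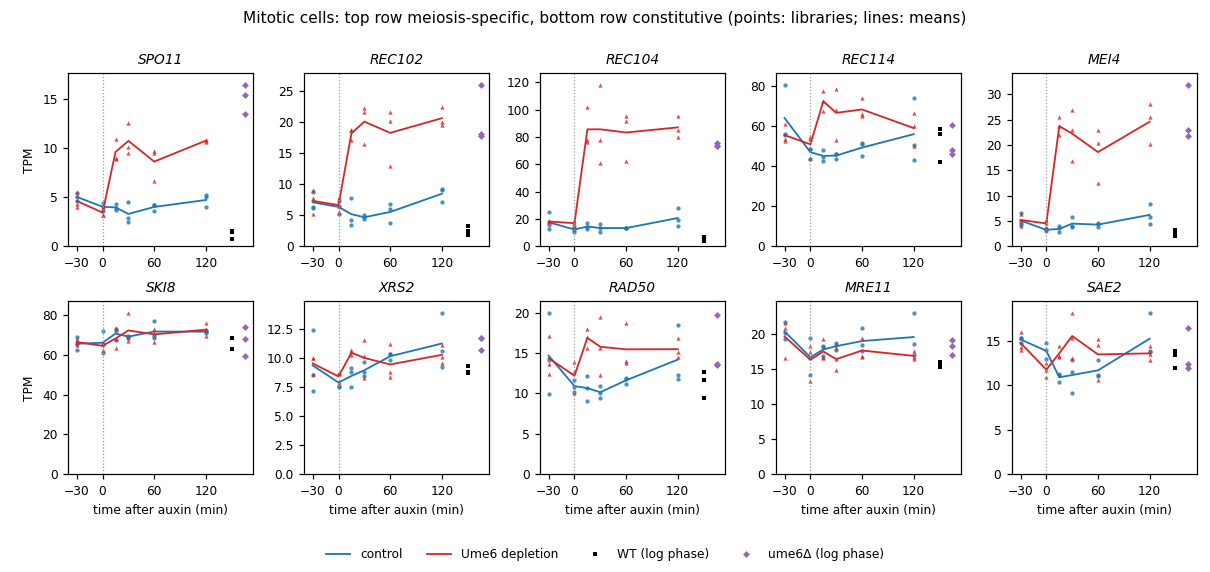
TPM of each member (y axes) against minutes after auxin (x axes) in mitotic cells of the control (blue) and the Ume6 depletion strain (red), with WT (black) and ume6Δ (purple) at the right of each panel. Points are libraries and lines are means of 3. SPO11, REC102, REC104 and MEI4 of the depletion strain lie above the control at every time from 15 min, for example MEI4 at 22.0 to 25.4 TPM against 2.76 to 3.96 at 15 min, while SKI8 runs together in both strains.

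The rise was largely complete at the first time point. Before auxin, 0 of 10 members were called at −30 min (0.237% of all genes tested) and 0 at 0 min (0.510%). DESeq2 called 0 at both times, and at an unadjusted p under 0.05 there were 0 members at −30 min and 1 (SAE2) at 0 min. In the depletion strain, mean REC104 at 15, 30, 60 and 120 min was 85.5, 85.6, 83.2 and 87.0 TPM. SPO11 went through 9.58, 10.7, 8.60 and 10.7 TPM, and MEI4 through 23.7, 22.2, 18.6 and 24.6. These means stay within the spread of the libraries, and at 60 min replicate 3 was the lowest of the 3 for SPO11, REC102, REC104 and MEI4.

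The number of members called was 7 at 30 min (4.94% of all genes), 5 at 60 min (4.08%) and 4 at 120 min (3.61%). All 5 meiosis-specific genes were called at 30 and 60 min, and at 120 min all but REC114 (log2FC 0.14). RAD50 and SAE2 were called at 30 min (log2FC 0.60 and 0.44). At 60 and 120 min, 0 of the 5 constitutive genes were called in edgeR or DESeq2, with 1 (RAD50) and 0 at an unadjusted p under 0.05. The strains came closer at 120 min for REC102, whose control mean rose from 5.18 TPM at 15 min to 8.47, while the depletion strain was at 20.6.

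In ume6Δ cells the same 4 meiosis-specific genes were called. SPO11 was at 16.4, 15.3 and 13.4 TPM, 12.1-fold the WT mean, with a log2FC of 3.55 (SE 0.22, edgeR adjusted p = 1.32e-15). REC104 was at 73.5, 73.6 and 75.5 TPM, a log2FC of 3.68 (SE 0.23). MEI4, with 21.8, 23.1 and 31.9 TPM, and REC102, with 17.7, 18.1 and 26.0, had log2FCs of 3.11 and 2.86. In the depletion strain at 120 min, SPO11, REC104, MEI4 and REC102 averaged 10.7, 87.0, 24.6 and 20.6 TPM. All ume6Δ libraries of SPO11 lay above that SPO11 mean. These 4 genes were lower in WT than in the control before treatment, and the part of this in the folds of ume6Δ was not tested. REC114 did not differ from WT by the test (51.6 ± 8.00 against 52.3 ± 8.91 TPM, log2FC −0.12, SE 0.12, edgeR adjusted p = 0.406). RAD50 was called with a log2FC of 0.37 (edgeR adjusted p = 0.0442).

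In all, 5 of 10 members were higher in ume6Δ, against 27.5% of all genes tested, and the median log2FC was 3.11 over the meiosis-specific and 0.12 over the constitutive members (−0.03 over all genes). The part of the low a-cell and raised alpha-cell genes of these libraries in this result was not tested. In the pathway, 6 of 7 other meiosis-specific genes were higher in ume6Δ, led by MEK1 (a kinase that steers repair to the homolog, log2FC 4.88) and HOP1 (an axis protein, 4.87). At 15 min of depletion 5 of 7 were higher, with MEK1 at 2.25 and HOP1 at 1.72, and REC107, which encodes Mer2 (log2FC −0.25), and MER1, a splicing activator (0.09), were not called. Of 10 constitutive pathway genes, 1 was higher at 15 min and 2 higher and 1 lower in ume6Δ. Among all genes tested, 10.2% were higher at 15 min and 27.5% in ume6Δ, and the share lower is not given here. The checkpoint kinase gene MEC1 was among those higher at 15 min and in ume6Δ (0.55 and 0.94).

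Sporulating cells of the meiotic depletion experiment held the meiosis-specific transcripts at a low level when copper was added. In the control at 2 h, SPO11 was at 11.8 ± 1.87 TPM, REC102 at 25.8 ± 0.858, REC104 at 44.6 ± 4.03, REC114 at 116 ± 12.2 and MEI4 at 7.87 ± 1.77 (SD, n = 3). Within 30 min of induction, MEI4 went from 6.91, 9.92 and 6.78 TPM to 78.8, 63.4 and 54.1, a log2FC of 2.78 (SE 0.23, edgeR adjusted p = 9.18e-12). REC104 rose by 1.65, REC102 by 1.16, SPO11 by 1.03 and REC114 by 0.31, all called. SAE2 (log2FC 0.99) and SKI8 (0.72) were called with them. In all, 7 of 10 members were higher at 2.5 h, against 26.5% of all genes, and 8 of 10 at 6 h (34.2%), with XRS2 lower at 6 h (log2FC −0.49). Between 2 and 2.5 h, going from edgeR's scaling (TMM, trimmed mean of M-values) to TPM shifted the median of all genes by 0.26 on the log2 scale, close to the log2FC of REC114.

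The means of all 5 meiosis-specific genes were lower at 3 h than at 2.5 h in the control, and higher again at 4.5 h. The study's methods report a rise at 2.5 h and a drop at 3 h for many early meiotic genes with this induction, of unclear cause. Over the 7 other meiosis-specific genes of the pathway, the median log2FC from 2 h was 2.92, 1.17 and 2.62 at 2.5, 3 and 4.5 h. Mean SPO11 was 29.0 TPM at 2.5 h and 16.7 at 3 h, followed by 52.5 at 4.5 h and 60.5 at 6 h, and its 3 libraries at 3 h were spread from 10.2 to 26.3. MEI4 was at 65.4, 27.5, 66.1 and 71.8 TPM at these times. In contrast, SKI8 stayed at 136 TPM at 3 h, 138 at 4.5 h and 124 at 6 h after 107 at 2.5 h, and SAE2 went from 44.1 TPM at 2.5 h to 16.0 at 6 h. These are levels with no test between times after 2 h.

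With Ume6 depleted, MEI4 and REC104 were higher at 2 h and lower at 2.5 h. At 0.5 h, when auxin was added, 0 of 10 members were called in edgeR or in DESeq2 (0.181% of all genes), also at an unadjusted p under 0.05. At 2 h, MEI4 was higher in the depletion strain, at 22.4, 21.3 and 20.4 TPM against 6.91, 9.92 and 6.78, with a log2FC of 1.46 (SE 0.24, edgeR adjusted p = 1.89e-04). REC104 was higher too, at 97.0, 89.8 and 105 TPM against 42.1, 49.2 and 42.4, with a log2FC of 1.16 (SE 0.12, edgeR adjusted p = 2.14e-07). REC102 had a log2FC of 0.52 that missed the adjusted threshold in edgeR and passed in DESeq2, and SPO11 and REC114 were at 0.13 and 0.03. The 2 members called compare with 1.85% of all genes.

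After induction, some or all meiosis-specific genes were called lower in the depletion strain at 2.5, 4.5 and 6 h, and none in edgeR at 3 h. At 2.5 h, the median log2FC of the meiosis-specific members was −0.48 (0.00 over all genes), and REC102, REC104, REC114 and MEI4 were called, 4 of 10 members against 4.92% of all genes. MEI4 was at 41.5, 43.2 and 33.8 TPM against 78.8, 63.4 and 54.1 in the control, a log2FC of −0.68 (SE 0.20, edgeR adjusted p = 0.0309). SPO11 was at 20.8, 21.5 and 19.7 TPM against 33.1, 28.5 and 25.5, without overlap, but its log2FC of −0.44 was not called (edgeR adjusted p = 0.151). None of the constitutive genes was called in edgeR or DESeq2, 0 of them also at an unadjusted p under 0.05. These calls are near the threshold. Without replicate 1 of the control or replicate 3 of the depletion strain 0 members were called, without replicate 1 of the depletion strain 1 (REC102), and with only the compared groups in the fit 2.

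At 6 h all 5 meiosis-specific genes were lower and 0 of the 5 constitutive ones were called in edgeR or DESeq2 (1, MRE11, at an unadjusted p under 0.05). REC114 was at 118, 116 and 120 TPM in the depletion strain against 240, 209 and 273 in the control, with a log2FC of −0.95 (SE 0.13, edgeR adjusted p = 4.83e-06). SPO11 was at 33.0, 25.3 and 36.7 TPM against 69.2, 50.9 and 61.4, with a log2FC of −0.86 (SE 0.18, edgeR adjusted p = 0.00112). MEI4 was at −0.74, REC102 at −0.60 and REC104 at −0.44. The 5 members compare with 7.11% of all genes called lower. In the pathway list 6 of 7 meiosis-specific genes were lower at 6 h and 0 of 10 constitutive genes were called.

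At 3 h, 0 of the 5 meiosis-specific genes were called in edgeR (1, REC104, at an unadjusted p under 0.05 and in DESeq2), with log2FCs from −0.13 (SPO11) to 0.35 (MEI4 and REC104) and a median of 0.10. At that time 1 of 10 members was called, SKI8, at 113, 105 and 113 TPM in the depletion strain against 149, 135 and 125, with a log2FC of −0.26 (SE 0.08, edgeR adjusted p = 0.0415), against 8.40% of all genes in either direction. This call rests on single libraries. Without replicate 2 of the control, replicate 2 or replicate 3 of the depletion strain, or with only the compared groups in the fit, 0 members were called, and without replicate 1 of the control 2 were (MEI4 and REC104).

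At 4.5 h, 5 members were lower against 4.29% of all genes, 3 meiosis-specific (SPO11 −1.23, REC114 −0.77, REC102 −0.52) and 2 constitutive (RAD50 −0.41, MRE11 −0.29). This count depended on single libraries. It was 3 without replicate 1 of the control or replicate 3 of the depletion strain, 2 without replicate 3 of the control or replicate 2 of the depletion strain, and 3 with only the compared groups in the fit. SPO11 and REC114 were called in each of these fits that left out a library. With all libraries in the fit, MEI4 and REC104 were not called, MEI4 with an unadjusted p under 0.05 in edgeR. Going from TMM to TPM shifted the median of all genes by −0.18 at this time.

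**Figure D2:**
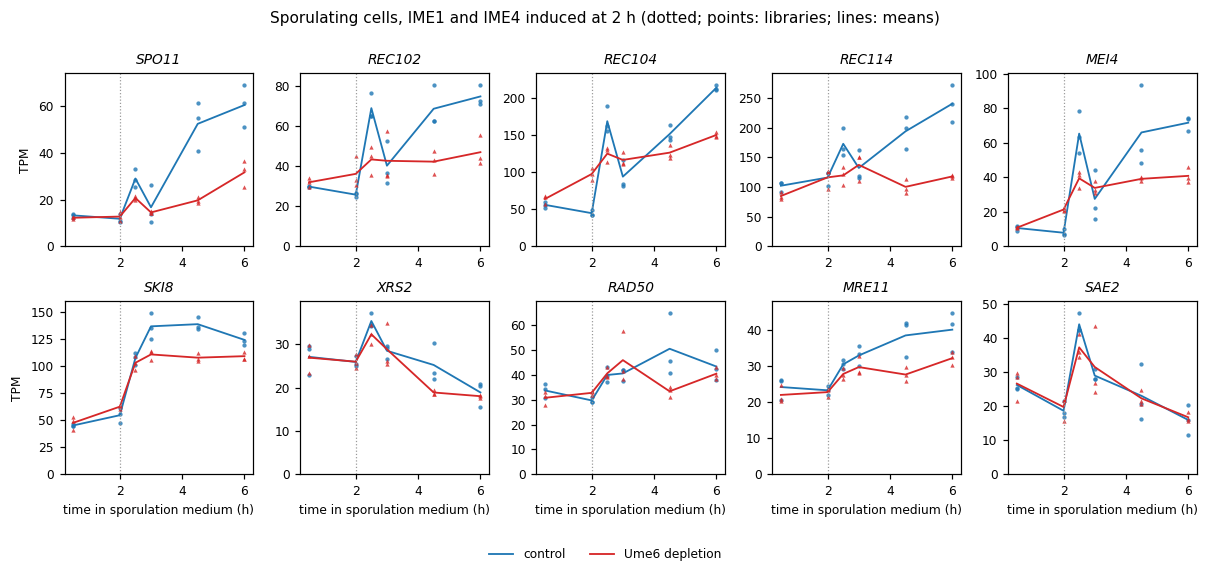
TPM of each member (y axes) against hours in sporulation medium (x axes) in the control (blue) and the Ume6 depletion strain (red), with the induction of IME1 and IME4 at 2 h as a dotted line. Points are libraries and lines are means of 3. MEI4 and REC104 of the depletion strain lie above the control at 2 h and under it at 2.5 and 6 h.

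The change from 2 h was tested for a difference between the strains. From 2 to 6 h, the change was smaller in the depletion strain for all 5 meiosis-specific genes, by −2.20 for MEI4 (SE 0.31, edgeR adjusted p = 1.48e-05), −1.59 for REC104, −1.12 for REC102, −0.99 for SPO11 and −0.98 for REC114. In edgeR 0 of the constitutive genes were called (1, SKI8, at an unadjusted p under 0.05 and in DESeq2). The 5 members compare with 4.20% of all genes. From 2 to 2.5 h, 3 members were called, against 2.44% of all genes, with MEI4 at −2.13, REC104 at −1.54 and REC102 at −1.13. Each of these differences includes the start at 2 h. That start was called higher with Ume6 depleted for MEI4 and REC104, and for REC102 in DESeq2 alone.

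In the rescue experiment, cells with unmodified IME1 and UME6 showed the ordinary course. SPO11 was at 2.51, 2.99 and 4.32 TPM at 0 h, 40.0, 34.8 and 49.2 at 2 h, 207, 218 and 228 at 4 h, and 86.2, 133 and 109 at 6 h. Its log2FC from 0 to 4 h was 5.93 (SE 0.23, edgeR adjusted p = 3.79e-33), the largest of the members. MEI4 rose by 5.40, REC102 by 4.96, REC104 by 4.53 and REC114 by 2.53. The constitutive genes rose as well, by 1.35 for MRE11, 1.26 for SAE2, 1.23 for RAD50, 0.88 for SKI8 and 0.51 for XRS2. All 10 members were higher at 2 h (33.0% of all genes) and at 4 h (36.5%). The medians at 4 h were 4.96 and 1.23, against −0.02 over all genes.

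After 4 h the levels parted. In TPM, all 5 meiosis-specific genes were lower at 6 h than at 4 h, with MEI4 at 70.2 ± 14.5 against 170 ± 6.98, and RAD50 was at 20.7 ± 2.57 against 60.7 ± 4.12. SAE2 was the exception, at 50.6 ± 7.93 TPM against 32.4 ± 2.03, with no overlap between libraries, and its log2FC from 0 to 6 h was 2.52. XRS2 was at 14.0 TPM at 6 h and 18.0 at 0 h, but its log2FC was 0.07 and not called. From 0 to 6 h, TPM shifted the median of all genes by −0.44, against 0.17 from 0 to 4 h, so the direction for XRS2 depends on the scaling. The difference between 4 and 6 h is also smaller for the meiosis-specific genes on the edgeR scale, where their median log2FC from 0 h was 4.96 at 4 h and 4.62 at 6 h. No test was run between 4 and 6 h. The summed level of 4 middle meiotic genes (NDT80, SMK1, SPS1 and CLB1) was 127 TPM at 4 h and 4723 at 6 h, and its part in these levels was not tested.

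The T99N substitution lowered the meiosis-specific genes once cells were starved. At 0 h, 0 of 10 members were called between UME6(T99N)-3V5 and UME6-3V5 in edgeR, in DESeq2 and at an unadjusted p under 0.05, against 9.43% of all genes in either direction. At 2 h, MEI4 was at 14.1, 12.6 and 13.8 TPM with T99N and at 57.5 and 62.2 with UME6-3V5, with a log2FC of −2.08 (SE 0.22, edgeR adjusted p = 2.04e-11). REC104 was at −1.76, SPO11 at −1.07, REC102 at −0.77 and REC114 at −0.69. In these 5 the libraries did not overlap, with only 2 in the reference, and the share of all genes without overlap was not computed. Of the constitutive genes, 0 were called in edgeR or DESeq2 (1, SKI8, at an unadjusted p under 0.05). The 5 members compare with 12.4% of all genes.

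Both exchanged libraries belong to the UME6-3V5 reference. Kept under the labels of the counts, they gave 4 calls at 0 h and only 2 lower members at 2 h, and with the labels exchanged the counts were 0 and 5 as with both left out. Without replicate 2 or replicate 3 of UME6-3V5 at 2 h, which leaves 1 library in that group, 3 members were called (MEI4, REC104 and SPO11).

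The reduction lasted. At 4 h SPO11 was at 18.7, 19.8 and 19.2 TPM with T99N against 121, 119 and 125, with a log2FC of −2.50 (SE 0.18, edgeR adjusted p = 4.15e-18). All 5 meiosis-specific genes and MRE11 were lower (6 of 10 members, against 13.1% of all genes) and SAE2 was higher (0.46). At 6 h SPO11 reached 33.4, 33.3 and 32.9 TPM against 83.0, 81.6 and 76.8, and 8 members were lower (14.9% of all genes), including SKI8, RAD50 and MRE11 with log2FCs from −0.46 to −0.30. The mean level of MEI4 with T99N was still higher at each later time, at 5.93 TPM at 0 h and 13.5, 21.7 and 31.5 at 2, 4 and 6 h. Between these strains TPM shifted the median of all genes by −0.16 at 4 h and −0.12 at 6 h.

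Tethering of sfGFP-IME1 to UME6(T99N)-3V5-aGFP was compared with untethered IME1 in the same UME6 background. At 2 h SPO11 was at 78.7, 104 and 78.1 TPM with the tether and at 6.07, 3.60 and 4.01 without it, a log2FC of 3.97 (SE 0.22, edgeR adjusted p = 4.33e-25). REC102 was at 63.8, 79.5 and 59.2 TPM against 3.21, 4.97 and 5.82, a log2FC of 3.52 (SE 0.26). REC104 and MEI4 had log2FCs of 3.26 and 3.18, from 13.8 ± 1.64 to 163 ± 26.0 TPM and from 8.19 ± 0.404 to 90.8 ± 7.62. REC114 rose from 71.7 ± 1.84 to 160 ± 3.36 TPM (log2FC 0.86). Libraries of the strains did not overlap for any of the 5, and the share of all genes without overlap was not computed.

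The constitutive genes moved less than SPO11, REC102, REC104 and MEI4, but MRE11, SAE2 and SKI8 moved more than REC114. MRE11, the nuclease, rose by 1.13, SAE2, its cofactor, by 1.12, SKI8 by 0.97 and RAD50 by 0.62, and XRS2 was at −0.16. In all, 9 of 10 members were higher at 2 h, against 29.0% of all genes, and the medians were 3.26 for the meiosis-specific and 0.97 for the constitutive members (−0.06 over all genes). TPM shifted the median of all genes by 0.29. The count was 6 at 0 h (19.1%), 8 at 4 h (31.7%) and 9 at 6 h (33.0%). At 0 h REC114 was not called (log2FC 0.41), SAE2 rose by 1.57 and RAD50 by 0.68, and replicate 2 of the tethered strain was the highest for SPO11 (20.1 TPM against 7.23 and 8.90).

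The tethered and untethered strains also differed in the genes altered. At 2 h IME1 was at 2750 ± 275 TPM with the tether and 961 ± 46.6 without it, and UME6 at 144 ± 17.5 and 44.3 ± 7.01. Their part in the difference was not tested. The untethered nanobody strain also had lower means than UME6(T99N)-3V5 without a nanobody at 2 h, as SPO11 with 4.56 ± 1.33 against 15.1 ± 1.47 TPM, while the libraries overlapped for REC114. IME1 was at 2275 ± 177 TPM and UME6 at 99.2 ± 3.21 without the nanobody, and this difference was not tested.

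The GFP tag without a nanobody had no called effect. With UME6(T99N)-3V5 at 2 h, SPO11 was at 15.7, 13.0 and 12.6 TPM with sfGFP-IME1 and 16.1, 15.9 and 13.5 with IME1, which overlap. Between these strains 0 of 10 members were called in edgeR, in DESeq2 and at an unadjusted p under 0.05, against 0.0181% of all genes. The difference between the effect of GFP with and without the nanobody was called in 8 of 10 members, against 23.2% of all genes. It was 4.04 for SPO11 (SE 0.30, edgeR adjusted p = 1.78e-18), 3.63 for REC102, 3.41 for MEI4, 3.14 for REC104 and 0.85 for REC114. It was 1.43 for SAE2, 1.21 for MRE11 and 0.93 for SKI8, and RAD50 (0.45) and XRS2 (−0.21) were not called.

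**Figure D3:**
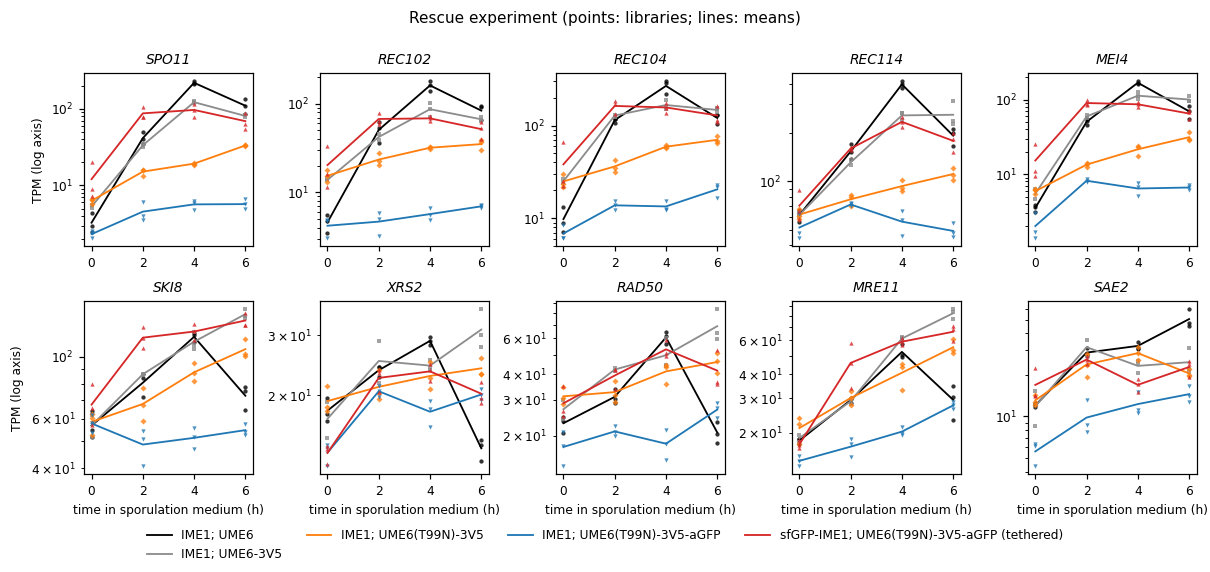
TPM of each member (y axes, log scale) against hours in sporulation medium (x axes) in 5 strains of the rescue experiment. Points are libraries and lines are means of 3, or of 2 for IME1 UME6-3V5 at 0 and 2 h. At 2 h SPO11 of the tethered strain (red) lies at 78.1 to 104 TPM, above UME6(T99N)-3V5 (orange) and the untethered nanobody strain (blue).

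Relative to sfGFP-IME1 cells with UME6-3V5, the tethered strain was higher at 2 h, with few members called later. At 2 h, SPO11 was at 26.8, 18.3 and 26.1 TPM in the reference, and the tethered strain was higher by a log2FC of 1.62 (SE 0.18, edgeR adjusted p = 3.21e-10). MEI4 was higher by 1.35, REC104 by 0.93 and REC102 by 0.90, with SKI8 and MRE11 higher by 0.41 and 0.54. These 6 of 10 members compare with 19.7% of all genes, and TPM shifted the median of all genes by 0.26. At 4 h only RAD50 (0.54) and MRE11 (0.44) were called (9.25% of all genes), and at 6 h only SAE2 (0.55, 14.2%). Of the meiosis-specific members 0 were called at either time in edgeR or DESeq2, 0 of them at an unadjusted p under 0.05. A missing call does not show equal levels. At 4 h the median log2FC of the 5 was 0.35, and REC104, REC114 and MEI4 lay above all reference libraries. One of those libraries held only 44189 counts in all, so lying above it says little. The share of all genes without overlap was not computed. At 6 h the median was −0.17, and the middle meiotic genes summed to 1292 TPM (551 to 1984) in the tethered strain and 110 (93.9 to 122) in the reference, whose part was not tested.

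These late calls were fragile. At 4 h the count was 1 without replicate 1 and 0 without replicate 3 of the reference, and 1 without replicate 3 of the tethered strain. At 6 h it was 0 without replicate 2 of the tethered strain. Leaving out the shallow reference library at 4 h, of 44189 counts, did not change the count, and with only the compared groups in the fit it was 0 at both times.

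The activation domain experiment asked whether a peptide other than Ime1 can raise these genes when tethered to Ume6. With tethered sfGFP-B112, IME1 transcripts were near 0 (2.61 ± 1.93 TPM at 2 h against 1162 ± 182 with tethered sfGFP-IME1). At 2 h, SPO11 was at 49.8, 29.3 and 40.7 TPM with sfGFP-B112 and at 2.90, 3.65 and 3.16 with untethered B112, a log2FC of 3.46 (SE 0.28, edgeR adjusted p = 1.18e-12). REC102 rose by 2.84, REC104 and MEI4 both by 2.19 and REC114 by 0.61. Of the constitutive genes, MRE11 rose by 1.09, SKI8 by 0.73 and RAD50 by 0.37, and SAE2 (0.69) and XRS2 (−0.18) were not called. Together 8 of 10 members were higher at 2 h, against 24.0% of all genes, and 8 at 6 h (28.5%). TPM shifted the median of all genes by 0.16 at 2 h.

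Tethered sfGFP-IME1 gave higher levels early. SPO11 was at 223, 274 and 163 TPM at 0 h and at 127, 155 and 142 at 2 h, against 3.77, 1.97 and 2.49 with untethered IME1 at 2 h, a log2FC of 5.69 (SE 0.31, edgeR adjusted p = 8.88e-18). REC102 rose by 4.13, REC104 by 3.64, MEI4 by 3.44 and REC114 by 2.06, with MRE11 (1.62), SKI8 (1.38) and RAD50 (0.45) from the constitutive set. The 8 members called at 2 h compare with 32.6% of all genes.

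Set against each other, the tethered domains changed order with time. At 2 h sfGFP-IME1 was above sfGFP-B112 for all 5 meiosis-specific genes, by 1.83 for SPO11, 1.49 for REC104, 1.47 for REC102, 1.41 for REC114 and 1.38 for MEI4. SKI8 (0.66) and MRE11 (0.59) were higher as well, 7 of 10 members against 14.5% of all genes. For SPO11 the libraries did not overlap, at 127 to 155 against 29.3 to 49.8 TPM. By 6 h sfGFP-IME1 was lower. SPO11 was at 29.1, 29.8 and 23.2 TPM against 75.7, 76.9 and 84.9, with a log2FC of −0.76 (SE 0.24, edgeR adjusted p = 0.00728). The larger differences at 6 h were in constitutive genes. RAD50 was at 13.1, 13.2 and 10.4 TPM against 46.3, 56.0 and 63.1, with a log2FC of −1.40 (SE 0.15, edgeR adjusted p = 3.12e-09). MRE11 was at −1.08, MEI4 at −0.92, XRS2 at −0.90, REC114 at −0.62 and SKI8 at −0.61. In all 7 of 10 members were lower, against 27.3% of all genes, and REC102 (−0.06), REC104 (−0.37) and SAE2 (0.31) were not called.

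Scaling matters for the late times. TPM shifted the median of all genes by −0.78 at 6 h between the tethered domains, and by −0.75 between sfGFP-IME1 and IME1. In that last comparison 6 members were called higher against 30.1% of all genes, with SPO11 at 3.06 and REC114 at 0.91, and XRS2 (−0.86) and RAD50 (−0.59) were lower. SKI8 was called higher by 0.25 there although its TPM was 44.5 ± 2.29 with sfGFP-IME1 and 63.1 ± 9.63 with IME1. The summed middle meiotic genes stood at 5436 TPM at 4 h and 4080 at 6 h with sfGFP-IME1, and at 101 and 606 with sfGFP-B112, and their part in the late difference was not tested.

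**Figure D4:**
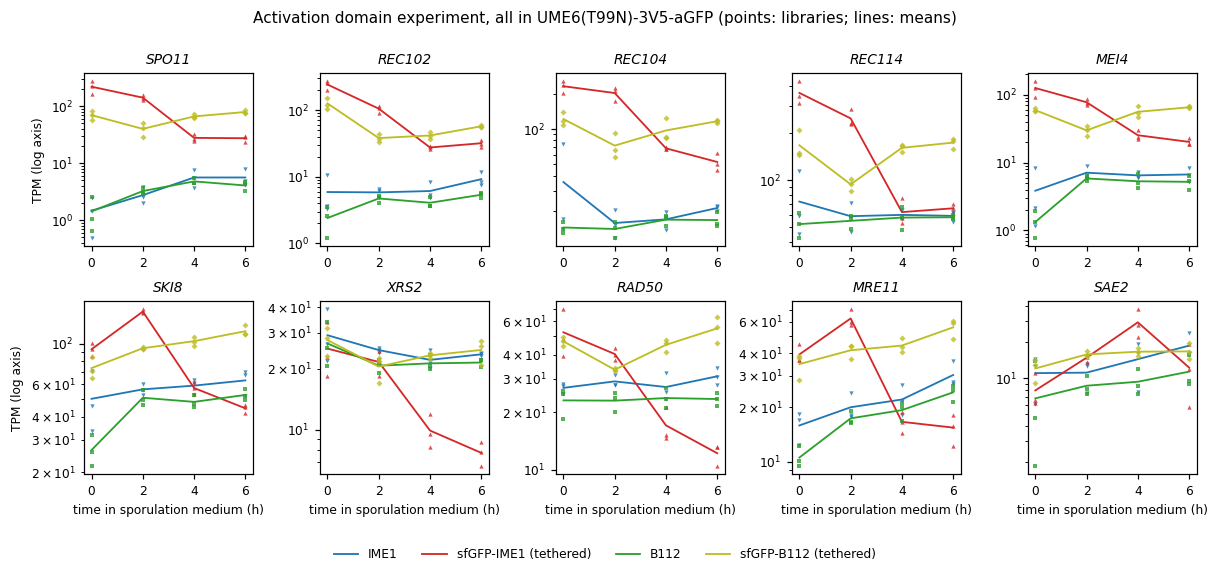
TPM of each member (y axes, log scale) against hours in sporulation medium (x axes) with IME1 (blue), sfGFP-IME1 (red), B112 (green) and sfGFP-B112 (olive), all with UME6(T99N)-3V5-aGFP. Points are libraries and lines are means of 3. The red line of SPO11 goes from 220 TPM at 0 h to 27.4 at 6 h, and crosses the olive line between 2 and 4 h.

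Among the other genes of the pathway, all 7 meiosis-specific ones rose in the control from 2 to 2.5 h, in cells with IME1 and UME6 at 2 and 4 h, with the tether at 2 h and with both tethered domains at 2 h, and all 7 were lower with T99N at 2 h. HOP1 rose by 6.21 and MEK1 by 6.63 with the tether at 2 h, more than any member. Over all genes, the shares called in these comparisons were 26.5% from 2 to 2.5 h, 33.0% and 36.5% at 2 and 4 h, 29.0% with the tether, 32.6% and 24.0% with the tethered IME1 and B112 domains, and 12.4% lower with T99N. Of the 10 constitutive ones, 8 rose with the tether at 2 h, and SPP1 (−0.14), a subunit of the Set1 methyltransferase complex that binds Mer2, and TEL1 (−0.06), a checkpoint kinase, were not called. CDC7 and DBF4, the kinase and its regulatory subunit that phosphorylate Mer2, rose by 2.40 and 1.89.

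**Figure D5:**
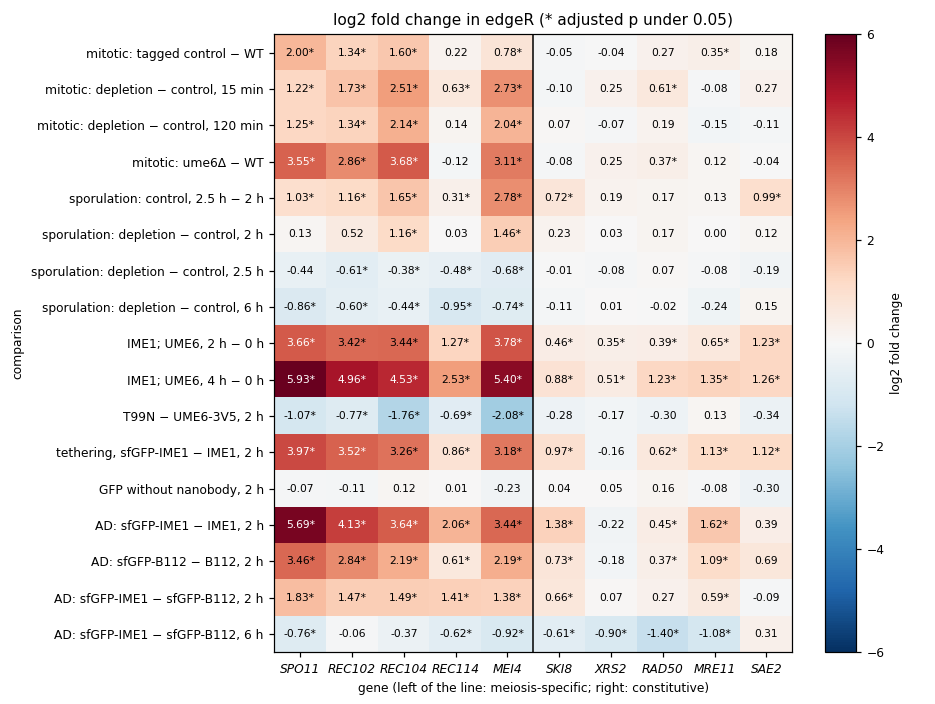
log2FC in edgeR for the 10 members (x axis) in 17 comparisons (y axis), with red for higher, blue for lower and an asterisk at an adjusted p under 0.05. The 5 meiosis-specific genes at the left of the line range from −2.08 (MEI4, T99N at 2 h) to 5.93 (SPO11, IME1 UME6 cells at 4 h), and the constitutive genes from −1.40 (RAD50) to 1.62 (MRE11).

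Over all 74 strains and times, the meiosis-specific genes followed one another closely. Spearman's rho between the mean TPM of 2 members was 0.898 to 0.959 in the 10 pairs of meiosis-specific genes (median 0.935), 0.268 to 0.845 in the 10 pairs of constitutive genes (median 0.576) and 0.368 to 0.829 in the 25 mixed pairs (median 0.733). The points share libraries, scaling and time courses, so these are descriptions. Among the 5520 genes whose mean TPM reached 5, the genes most like SPO11 were ECM11 (rho 0.978), FKS3 (0.974) and ZIP1 (0.967). Those most like REC102 were ZIP1 (0.972), ECM11 (0.966) and MEI5 (0.958), and those most like MEI4 were MSH4 (0.967), HED1 (0.960) and ZIP1 (0.957). For REC104 they were SAE3 (0.944), ZIP1 (0.939) and HED1 (0.939). For REC114 they were HFM1 (0.945), SMN1 (0.931) and YGL081W (0.929), which depended on the measure. With Pearson's r of log2(mean TPM + 1) its nearest genes were MSH4 (0.924), ZIP1 (0.917) and UBR2 (0.912).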

How the data were processed

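RNA was sequenced in 222 polyA-selected, directional 100-bp single-end libraries per the study's methods. The authors estimated transcript abundance with kallisto on SK1 transcripts and deposited estimated counts and TPM values for 5818 genes per experiment. The version of kallisto and the use of strand are not given in the sources used here. Between 92.2% and 98.4% of the values of a library were whole numbers (tolerance 1e-06), and the rest were rounded. Symbols came from the tables (5419 genes) or RefSeq (399).

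Each of the 4 experiments was fitted once in edgeR 4.0.16 (R 4.3.3, limma 3.58.1) with TMM, filterByExpr, a mean for each strain and time, and the quasi-likelihood test, two-sided, with Benjamini-Hochberg adjustment over all genes tested (5488 in the mitotic, 5526 in the meiotic depletion, 5527 in the rescue and 5528 in the activation domain experiment). All 10 members passed the filter in each. The fitting was tested on simulated data. Differences between differences are interaction contrasts of the same fits. TPM values served for levels and were not tested. Overlap of libraries is a description, and its share over all genes was not computed. For the exchanged pair, the log2 ratio of counts to TPM scattered over genes, while its SD was at most 0.0018 in matching libraries. Of 222 replicate pairs, 0 were identical.

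Alternatives were RLE size factors, no filter, DESeq2 1.42.0, fits of the compared groups alone, a replicate block, each library left out, and other settings for likeness and motif. All 10 members were named, with the 17 pathway genes by counts and examples, and for each meiosis-specific member the 3 genes most like it. Members and lists were chosen with earlier results of these data known.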

Additional observations from a re-analysis of the deposited data

Results flagged for a closer look

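A difference between groups in the size of an effect was called in edgeR for 16 results. In the meiotic depletion experiment the change from 2 to 2.5 h was smaller with Ume6 depleted for REC102 (−1.13 on the log2 scale), REC104 (−1.54) and MEI4 (−2.13). From 2 to 6 h it was smaller for SPO11 (−0.99), REC102 (−1.12), REC104 (−1.59), REC114 (−0.98) and MEI4 (−2.20). In the rescue experiment at 2 h the effect of GFP on IME1 was larger with the nanobody than without it for SPO11 (4.04), REC102 (3.63), MEI4 (3.41), REC104 (3.14), SAE2 (1.43), MRE11 (1.21), SKI8 (0.93) and REC114 (0.85). The untethered nanobody strain, with the lowest SPO11 of the 4 strains in that contrast, enters it, as does its lower IME1 level, and their part was not tested.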

How the results depend on the processing

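Of 208 called log2FCs of members, 1260 of 1339 values with one library left out and 1199 of 1218 under other alternatives kept direction and call, and 0 reversed. With only the compared groups in the fit, the number of members called was 2 in place of 4 (meiotic depletion, 2.5 h), 0 in place of 1 (3 h), 3 in place of 5 (4.5 h), and 0 in place of 2 and of 1 for the tethered strain against sfGFP-IME1 UME6-3V5 at 4 and 6 h. RLE size factors and DESeq2 each gave 2 at 3 h. With the exchanged libraries under the count labels, T99N gave 4 in place of 0 at 0 h and 2 in place of 5 at 2 h, and the tethered strain 0 at 6 h. With one library left out the counts ranged from 0 to 4 (2.5 h), 0 to 2 (3 h), 2 to 6 (4.5 h), 3 to 5 (T99N, 2 h), 0 to 2 (tethered, 4 h) and 0 to 1 (6 h). The cause was not tested.

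Small uncalled log2FCs changed sign. With only the compared groups, MRE11 at 2 h of the meiotic depletion went from 0.0008 to −0.0077 and SKI8 at 2.5 h from −0.0116 to 0.0102. Over single libraries left out, the ranges were −0.124 to 0.0197 for SAE2 in ume6Δ, −0.0864 to 0.120 for REC114, −0.0113 to 0.0916 for XRS2 and −0.0538 to 0.0565 for MRE11 at 2 h, −0.0391 to 0.0317 for SKI8 at 2.5 h, and −0.187 to 0.0174 for REC102 and −0.167 to 0.645 for SAE2 between the tethered domains at 6 h.

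Of the 3 genes most like each member, both Pearson settings kept 3 for REC102, 2 for REC104 and MEI4, 0 for REC114, and 2 or 1 for SPO11, and a lower minimum TPM kept all. Deviations of same-numbered libraries from their group means correlated at r from −0.479 to 0.503 over the comparisons counted, with no common sign. Interaction contrasts were not checked in this way. In the depletion strain from 2 to 2.5 h, which enters 1 of them, r was 0.294 to 0.561 over 3 pairs. A replicate block moved no count of members, with 6 at 15 min of mitotic depletion in both fits. The block shares its numbers over all strains, so it cannot show a pairing of cultures within a strain. At about 10 to 20 counts per library, SPO11 in WT limits the precision of its fold in ume6Δ.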

Other observations

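At the start of the activation domain experiment, the tethered strains already held high levels of the meiosis-specific members. With sfGFP-IME1 at 0 h, REC102 was at 270, 254 and 200 TPM, REC114 at 346, 430 and 311 and MEI4 at 128, 159 and 91.7. With sfGFP-B112 at 0 h, REC102 was at 153, 104 and 120 TPM and MEI4 at 56.9, 63.1 and 58.3. These libraries lay above every library of both strains without GFP at 0 h, where REC102 was at most 10.7 TPM and MEI4 at most 8.23. In the rescue experiment the tethered strain at 0 h was at 20.4 ± 11.5 TPM for REC102 and 15.3 ± 8.76 for MEI4. The experiments were fitted separately, and no test was made between them. In the untethered IME1 strain at 0 h, replicate 2 was above the others for REC104, at 74.8 TPM against 14.1 and 17.3.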
